A study of Rattus norvegicus with 8 samples.

Results

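The glucose transporters and hexokinases described here are 6 rat genes, Slc2a1, Slc2a3, Slc2a4, Slc2a5, Hk1 and Hk2, measured in the medial collateral ligament of the knee. Every probe set whose only gene symbol was one of these was taken, which gave 15 of the 8799 probe sets on the array: 5 for Hk1 and 2 for each other gene. These 6 are among the 4737 genes that are the only symbol of a probe set. The members were chosen by measured values: the low signal of Slc2a1 in unloaded against loaded healing ligaments was already known, so all member values of that comparison are given as description, without a test. The same holds for Slc2a1 in every comparison that uses healing arrays. Of the 15 probe sets, 8 passed the filter on dim signals and were tested, 4 fell below it, and 3 are array control probe sets for Hk1 that were not tested.

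The 8 arrays form 4 groups of 2, all collected at 3 weeks. In unloaded healing rats the ligament was disrupted on both sides and the hind limbs were unloaded by tail suspension from 24 h after surgery. Loaded healing rats had the same injury and normal weight bearing. Unloaded control rats were tail-suspended without sham surgery, and loaded control rats had sham surgery and bore weight, so between the control groups unloading and sham surgery cannot be told apart. The sources used here do not give strain, sex or age. Nor do they say whether arrays of a group came from separate animals, pools or repeats, so errors and p-values rest on differences between arrays that may be technical.

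Glucose enters cells down its gradient through facilitative transporters of the Slc2a (GLUT) family and is trapped inside by hexokinases, which phosphorylate it to glucose 6-phosphate. Slc2a1 (GLUT1) is the widespread basal transporter, abundant in perineurium and in proliferating or activated cells. Slc2a4 (GLUT4) is the insulin-responsive transporter of skeletal muscle and fat, stored in vesicles and moved to the surface by insulin or contraction. Slc2a3 (GLUT3) is the high-affinity transporter best known from neurons, and Slc2a5 (GLUT5) carries fructose. Hk1 is the housekeeping hexokinase of most tissues, and Hk2 is the insulin-regulated form of muscle and fat.

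The promoter of Slc2a1 is shown because this gene had the widest range of signal among the tested members. Promoter sequences came from RefSeq (rat assembly GRCr8), which matched 4 of the 6 genes: Slc2a1, Slc2a5, Hk1 with 2 entries, and Hk2. The stretch covers the 250 bases before the annotated start of Slc2a1 on the plus strand, chr5:138002272-138002521. Capitals mark ACGTG, the core of the hypoxia response element, and GGGCGG, the GC box, each searched on both strands.
Slc2a1 promoter: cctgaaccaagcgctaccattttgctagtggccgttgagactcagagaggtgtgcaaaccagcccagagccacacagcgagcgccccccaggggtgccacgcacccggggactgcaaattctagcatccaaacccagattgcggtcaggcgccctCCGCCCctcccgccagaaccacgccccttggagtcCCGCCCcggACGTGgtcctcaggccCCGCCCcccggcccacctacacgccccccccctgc
The Slc2a1 stretch held 1 match to ACGTG, whose first base lay 51 bases before the start, and 3 to GGGCGG. Of 33469 rat promoter stretches of this length, 16.6% held ACGTG and 30.5% held GGGCGG. One Hk1 entry held 1 match to ACGTG and 2 to GGGCGG, while the other Hk1 entry and those of Slc2a5 and Hk2 held neither in this window. The matches are letters in a window and were not measured as binding sites.

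Both arrays of unloaded controls differed from the other 6. Their log2 signals correlated at 0.695 to 0.757 (Pearson, across probe sets) with the other arrays, against 0.822 to 0.894 among those others, and their 99th percentiles of signal were 5494 and 5584, against 9218 to 11289. Defining ligament genes were dim there: Col1a1, the main type I collagen chain, read 699 and 763 in unloaded controls, against 75949 and 59573 in loaded controls. The 8 tendon and ligament fibroblast markers on the array summed to 3954 and 3307 in unloaded controls, 50600 to 118865 on the other 6 arrays. All 8 fell in unloaded against loaded controls (limma adjusted p under 0.05), as did 6.22% of all probe sets tested. Ligament markers were thus bright on 6 arrays, and every result below that uses the unloaded controls rests on arrays with dim ligament markers.

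**Figure D1:**
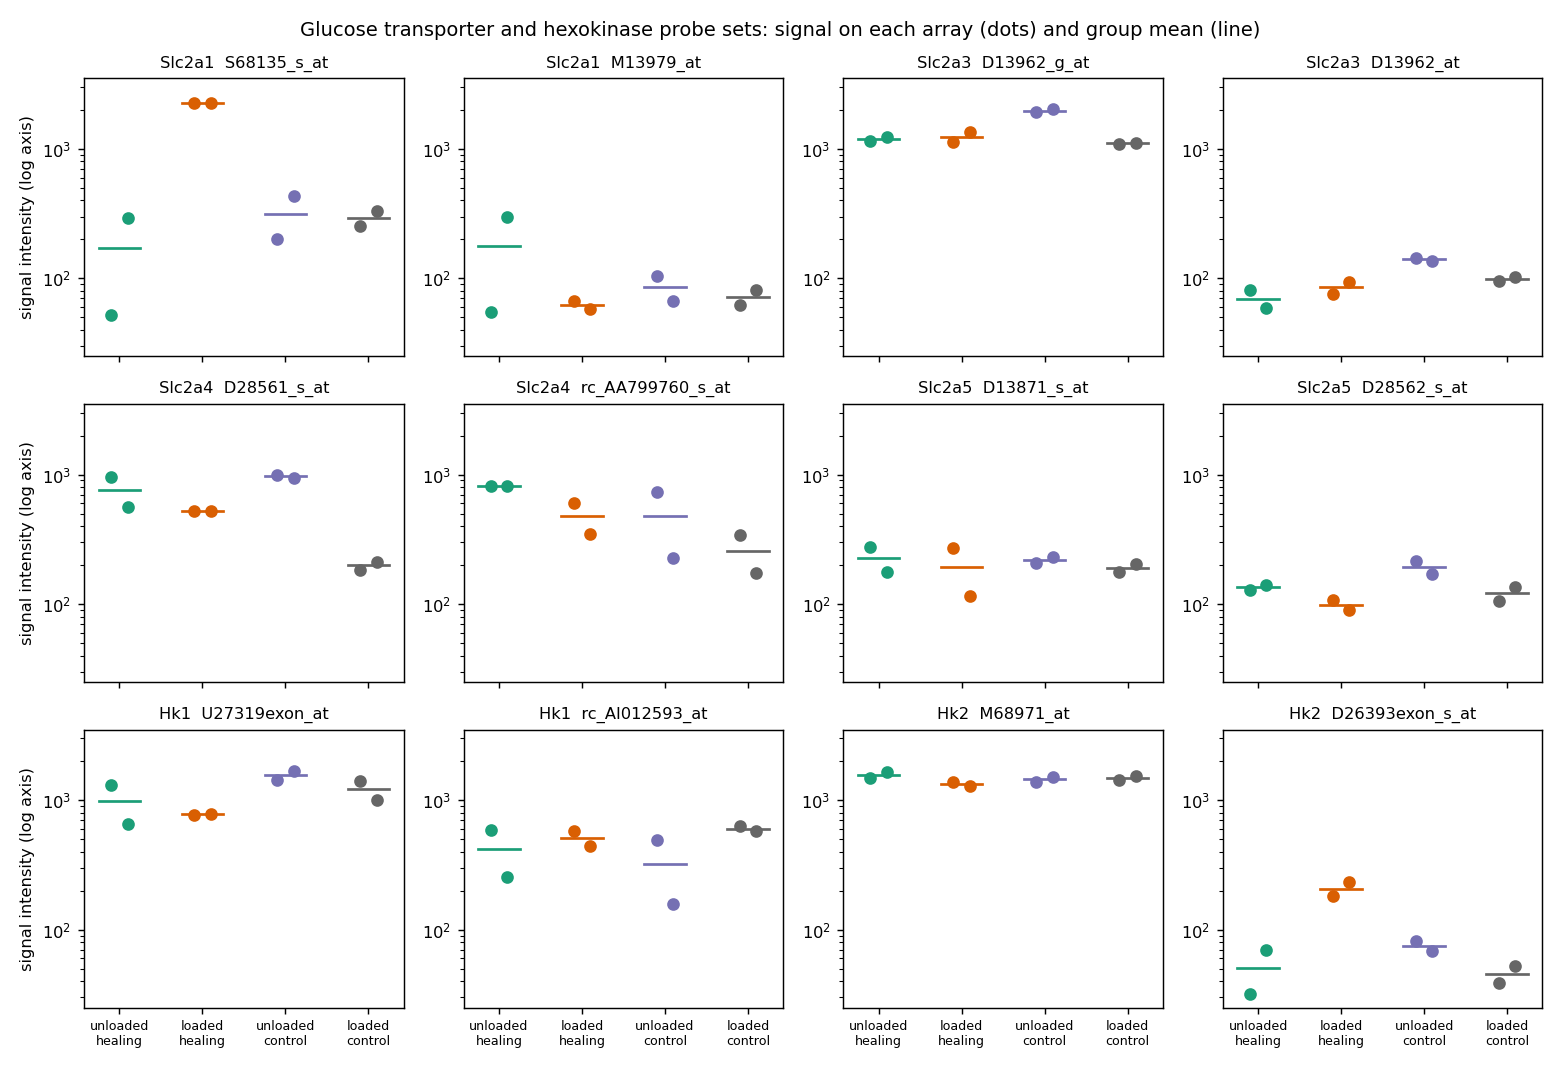
Signal intensity (log axis) of the 12 member probe sets that are not array controls, with 1 dot per array and a line at the mean of each group. Slc2a1 S68135_s_at was high only on both loaded healing arrays, Slc2a4 D28561_s_at was lowest on both loaded control arrays, and Hk2 M68971_at was nearly level over all 8.

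Among the transporters, Slc2a1 stood out on one of its probe sets. On S68135_s_at the signal was 51.8 and 291 in unloaded healing, 2247 and 2242 in loaded healing, 203 and 431 in unloaded control and 256 and 334 in loaded control. Both loaded healing arrays thus lay far above all other arrays, and the unloaded healing arrays overlapped both control groups. In unloaded against loaded healing the difference was log2 -3.66 ± 0.61 (SE of the limma fit, n = 2 arrays per group here and below), a 12.6-fold lower signal. In loaded healing against loaded control it was log2 2.76 ± 0.61, a 6.76-fold higher signal, and the healing effect in unloaded minus loaded rats was log2 -3.68 ± 0.86. These 3 values share the loaded healing arrays and are descriptions of the pattern for which the gene was picked. Fold changes include an offset of 45.8 added to every signal, which shrinks those of dim probe sets.

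How far Slc2a1 read below loaded healing depended on which unloaded healing array was used. The arrays of that group differed more than any other pair on this probe set, and the difference was log2 -2.76 without unloaded healing 1 and -4.55 without unloaded healing 2. Against loaded control, unloaded healing read log2 -0.90 ± 0.61, and -0.01 without unloaded healing 1. In unloaded healing against unloaded control, also given without a test, it read log2 -0.93 ± 0.61, with -0.03 without unloaded healing 1 and -1.82 without unloaded healing 2. The comparison of the control groups uses no healing array and did not pass, at log2 0.02 ± 0.61 in unloaded against loaded control (limma adjusted p = 0.990, 95% interval -1.34 to 1.39). The sign of the difference between controls turned with quantile normalization and with median centring (-0.23 and -0.22), and without loaded control 1 or unloaded control 2 (-0.14 and -0.44).

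The other Slc2a1 probe set did not show the loaded healing signal. M13979_at read 55.3 and 301 in unloaded healing, 66.6 and 58.3 in loaded healing, 104 and 66.8 in unloaded control and 62.6 and 81.7 in loaded control. Its brightest array was unloaded healing 2, and both loaded healing arrays lay within the range of the rest. The mean log2 signal of M13979_at was at the 16.6th percentile of all probe sets, below the filter, against the 66.2nd for S68135_s_at. Its difference in loaded healing against loaded control was log2 -0.12 and in unloaded against loaded healing 0.79. The "s" in the name S68135_s_at marks, in this naming scheme, probes that can match more than a single transcript. Both Slc2a4 probe sets, both Slc2a5 probe sets and Hk2 D26393exon_s_at carry the same mark. Which transcripts these probe sets match was not examined here.

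Slc2a4 had another order of groups. On D28561_s_at the signal was 954 and 565 in unloaded healing, 524 and 525 in loaded healing, 989 and 947 in unloaded control and 185 and 213 in loaded control. Both loaded controls lay below all 6 other arrays, the loaded healing arrays lay between, and the unloaded healing and unloaded control arrays overlapped. On rc_AA799760_s_at the signal was 811 and 819 in unloaded healing, 604 and 347 in loaded healing, 734 and 225 in unloaded control and 340 and 173 in loaded control. Loaded control was again the lowest group by mean, though its arrays overlapped those of the unloaded controls.

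At the deposited scaling, Slc2a4 was the only gene of the set that passed in any of the 4 tested comparisons. In unloaded against loaded control, D28561_s_at rose 4.15-fold (log2 2.05 ± 0.40, limma adjusted p = 0.00865), 1 of the 8 member probe sets tested, with 0 lower. Of all 5244 probe sets 6.81% were called in that comparison, 0.591% higher and 6.22% lower. The call ended without unloaded control 1 (log2 2.02, adjusted p = 0.0765) and without unloaded control 2 (log2 2.08, adjusted p = 0.0679), which leaves 1 array in that group. On rc_AA799760_s_at the same difference was log2 0.66 ± 0.58 (limma adjusted p = 0.601), and without unloaded control 1 it was -0.10. Unloaded controls lacked sham surgery and had the low ligament markers given above, and the part of either in the Slc2a4 call was not tested.

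In loaded healing against loaded control D28561_s_at read log2 1.22 ± 0.40 and rc_AA799760_s_at 0.80 ± 0.58. With limma over all probe sets neither passed (adjusted p = 0.204 and 0.706). The groups did not overlap on either. Array controls aside, 5 member probe sets were higher without overlap there, both Slc2a4 ones included, and 3 were lower, the nearly level Hk2 M68971_at included. The share of all probe sets without overlap was not counted in any comparison. Unloaded healing, compared with loaded control without use of the unloaded control arrays, read log2 1.68 ± 0.40 on D28561_s_at and 1.57 ± 0.58 on rc_AA799760_s_at, with both unloaded healing arrays above both loaded controls. That comparison was added after seeing the data and has no test. Unloaded against loaded healing read log2 0.45 ± 0.40 on D28561_s_at and 0.77 ± 0.58 on rc_AA799760_s_at. Neither overlapped, among 4 member probe sets higher and 2 lower without overlap there, array controls aside. D28561_s_at read 0.10 without unloaded healing 1 and -0.01 when arrays were scaled to spike-in controls.

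**Figure D2:**
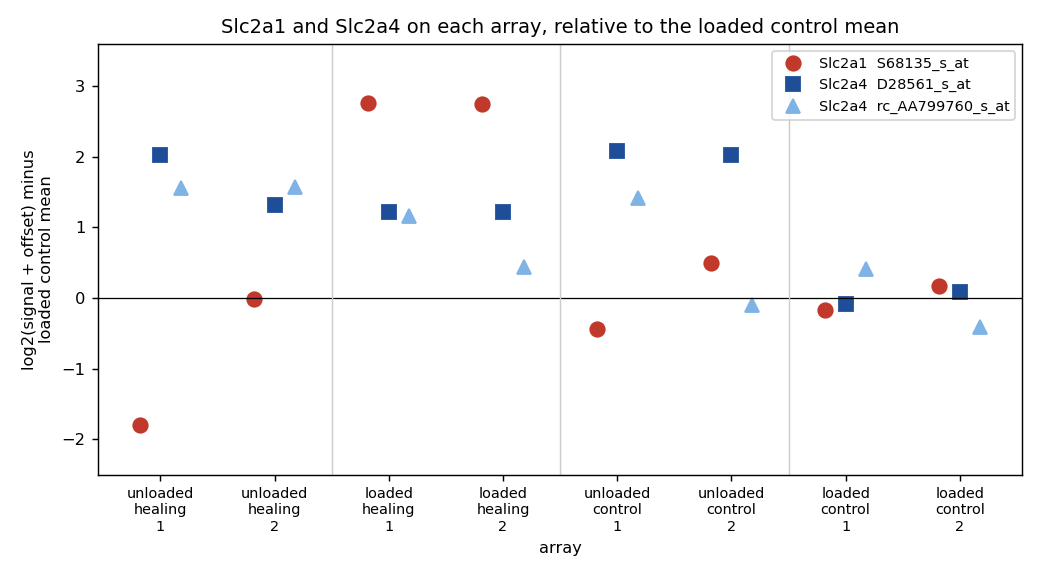
Slc2a1 S68135_s_at (circles) and both Slc2a4 probe sets (squares, triangles) on each array, as log2(signal + offset) minus the loaded control mean of that probe set. Slc2a1 lies 2.76 above the loaded control mean on both loaded healing arrays and at or below it on the unloaded healing arrays, where both Slc2a4 probe sets lie 1.32 to 2.03 above it.

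Set side by side, Slc2a1 S68135_s_at and Slc2a4 parted most in unloaded against loaded healing, given as description. The dim Slc2a1 M13979_at read 0.79 there, with overlap of arrays, in the same direction as Slc2a4 (0.45 and 0.77). The parting thus rests on S68135_s_at. The change of Slc2a1 S68135_s_at minus that of Slc2a4 was -4.11 log2 units with D28561_s_at and -4.43 with rc_AA799760_s_at in unloaded against loaded healing. In loaded healing against loaded control these probe sets all read higher, S68135_s_at by 1.53 and 1.96 log2 units more than the 2 Slc2a4 probe sets. In unloaded against loaded control the order turned, with the change of S68135_s_at below that of D28561_s_at by a difference of -2.03. Against rc_AA799760_s_at the difference was -0.64, with SEs of the changes of 0.61 and 0.58. Without unloaded control 1 the changes were 0.49 for S68135_s_at and -0.10 for rc_AA799760_s_at, so that order did not hold. Signals of different probe sets have different probe responses, so only these differences between groups were compared, not which transporter was more abundant.

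Slc2a3, on D13962_g_at, was bright and nearly level except in unloaded controls. It read 1145 and 1246 in unloaded healing, 1135 and 1339 in loaded healing, 1910 and 2028 in unloaded control and 1094 and 1115 in loaded control. The unloaded controls lay above every other array, and the other 3 groups were close. The difference in unloaded against loaded control was log2 0.81 ± 0.24 and in unloaded healing against unloaded control -0.70 ± 0.24, and neither passed (limma adjusted p = 0.0907 and 0.136). With quantile normalization both passed, at log2 1.01 (adjusted p = 0.0227) and -0.89 (adjusted p = 0.0377), while with median centring they were 0.57 (adjusted p = 0.374) and -0.50 (adjusted p = 0.424). The second Slc2a3 probe set, D13962_at, comes from the same sequence record and was dim, below the filter, at 58.9 to 144 over the 8 arrays. Its unloaded control arrays, at 144 and 136, were also the highest. The median signal of all probe sets was higher on those arrays too, at 314 to 316 against 239 to 286 on the others.

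Slc2a5, the fructose carrier, was dim, and none of its tested differences passed. On D13871_s_at it read 276 and 176 in unloaded healing, 269 and 115 in loaded healing, 207 and 229 in unloaded control and 177 and 204 in loaded control, and each healing group overlapped every other group. This probe set lay just inside the filter, at the 41.8th percentile. The tested differences of Slc2a5 between pairs of groups lay between log2 -0.07 and 0.16 with SE 0.57 (limma adjusted p = 0.920 to 0.991), and the 95% interval in loaded healing against loaded control ran from -1.34 to 1.20. The second probe set, D28562_s_at, fell below the filter (28.6th percentile) at 90.3 to 214. Its highest values, 214 and 172, were in unloaded controls, where the median of all probe sets was also highest.

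Of the hexokinases, Hk2 gave the steadiest signal of the set on its bright probe set. M68971_at read 1485 and 1650 in unloaded healing, 1387 and 1278 in loaded healing, 1383 and 1518 in unloaded control and 1425 and 1552 in loaded control, a range of 1.29-fold from lowest to highest. Loaded healing 2 was the lowest array and unloaded healing 2 the highest. Its difference in loaded healing against loaded control was log2 -0.15 ± 0.23 (limma adjusted p = 0.892, 95% interval -0.68 to 0.37). In unloaded against loaded control it was -0.04 (95% interval -0.56 to 0.49), and in unloaded healing against unloaded control 0.11 (-0.41 to 0.63). The sign of all 3 turned when arrays were scaled to spike-in controls (0.24, 0.06 and -0.08), and that of the middle one also with quantile normalization (0.03) and without unloaded control 1 (0.03) or loaded control 2 (0.02).

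The second Hk2 probe set was highest in loaded healing, as Slc2a1 S68135_s_at was and M68971_at was not. D26393exon_s_at read 32.0 and 69.2 in unloaded healing, 182 and 233 in loaded healing, 81.6 and 69.0 in unloaded control and 38.8 and 52.3 in loaded control. Both loaded healing arrays were above all others. The signal was at the 15th percentile of all probe sets, below the filter, so it was not tested. Its difference was log2 -1.41 in unloaded against loaded healing and 1.47 in loaded healing against loaded control, with SE 0.39 in a fit without the filter. The bright and dim probe sets of Hk2 thus differed, as those of Slc2a1 did.

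Hk1, which most tissues express, passed no test on either tested probe set. U27319exon_at read 1301 and 659 in unloaded healing, 774 and 779 in loaded healing, 1438 and 1694 in unloaded control and 1418 and 1003 in loaded control. The loaded healing arrays were below both control groups, and unloaded healing overlapped both loaded healing and loaded control. The differences were log2 -0.59 ± 0.35 in loaded healing against loaded control (limma adjusted p = 0.610) and -0.72 ± 0.35 in unloaded healing against unloaded control (limma adjusted p = 0.302). On rc_AI012593_at the signal was 585 and 254 in unloaded healing, 575 and 446 in loaded healing, 489 and 158 in unloaded control and 634 and 574 in loaded control, and both unloaded controls lay below both loaded controls. Differences on it lay between log2 -0.98 and 0.40 in the 3 tested pairs, with SE 0.57. The 3 array control probe sets for Hk1 were dim: the middle one read 144 to 318, the 5' one 15.9 to 242 and the 3' one 26.0 to 143. On the 5' one the unloaded arrays of both kinds, at 65.1 to 242, lay above the loaded ones, at 15.9 to 40.5. The 5'/3' signal ratio of the actin control was 0.634 to 0.964 in unloaded controls and 0.237 to 0.529 on the other arrays, and its part in these readings was not tested.

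**Figure D3:**
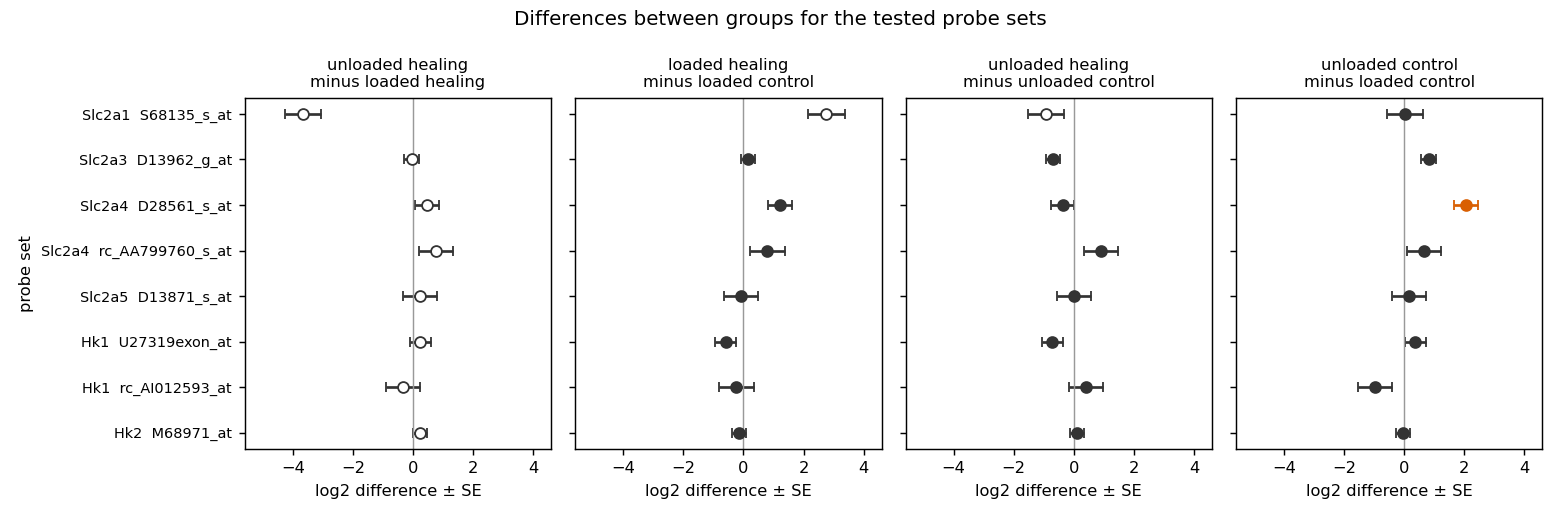
Log2 differences ± SE for the 8 tested member probe sets in 4 comparisons. Open circles are descriptions without a test, filled circles were tested, and the orange one, Slc2a4 D28561_s_at in unloaded against loaded control (log2 2.05), is the only one past the threshold.

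Counted over the set, 0 of 7 member probe sets passed in loaded healing against loaded control, with Slc2a1 left out, against 2.02% of all probe sets tested. There, 1 member had an unadjusted p under 0.05, Slc2a4 D28561_s_at. In unloaded healing against unloaded control, again without Slc2a1, 0 of 7 passed with limma, against 7.46% of all (6.41% higher and 1.05% lower), and 1 had an unadjusted p under 0.05, Slc2a3 D13962_g_at. For the difference in healing effect between unloaded and loaded rats 0 of 7 passed with limma, against 4.84% of all (4.52% higher and 0.324% lower). There, 2 had an unadjusted p under 0.05: Slc2a3 D13962_g_at (log2 -0.85 ± 0.34, adjusted p = 0.309) and Slc2a4 D28561_s_at (-1.60 ± 0.56, adjusted p = 0.217). The median difference of the 7 members tested in loaded healing against loaded control was log2 -0.07, against -0.03 over all probe sets, and that of the 8 tested in unloaded against loaded control was 0.27, against 0.23 over all.

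Downstream of hexokinase, 2 glycolytic genes, Eno1 and Pgam2, passed in some comparison. Of 25 listed genes of glycolysis 18 were on the array and 14 passed the filter. In loaded healing against loaded control 1 of the 14 rose and 0 fell (1.03% and 0.992% of all probe sets did). The riser was Eno1, the enolase of most tissues, at log2 1.26 ± 0.22 (limma adjusted p = 0.0186). It read 3984 and 3360 in unloaded healing, 9925 and 7294 in loaded healing, 2588 and 3438 in unloaded control and 3409 and 3651 in loaded control, so the loaded healing arrays were the highest, as for Slc2a1. Eno1 fell in unloaded against loaded healing (log2 -1.21 ± 0.22, limma adjusted p = 0.0255), 1 of 14 with 0 higher, where 0.858% of all probe sets were lower and 0.763% higher (1.62% in all). Both Eno1 calls ended, at nearly the same differences, with median centring (log2 1.24 and -1.23, adjusted p = 0.0822 and 0.0966) and without an intensity trend in the variance (1.26 and -1.21, adjusted p = 0.196 and 0.235). The fall also missed the threshold with quantile normalization (log2 -1.06, adjusted p = 0.0552) and with no filter (-1.21, adjusted p = 0.0596). Its rise in loaded healing did not pass when either array of either compared group was left out (log2 1.04 to 1.48, adjusted p = 0.0514 to 0.192). Its fall did not pass without any 1 of the healing or loaded control arrays (log2 -1.43 to -0.99, adjusted p = 0.0504 to 0.227).

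Pgam2, the muscle form of phosphoglycerate mutase, was the only glycolytic gene called in unloaded healing against unloaded control, at log2 2.22 ± 0.48 (limma adjusted p = 0.0166). It read 1657 and 1249 in unloaded healing, against 477 and 148 in unloaded control. The difference was log2 2.94 without unloaded control 1 and 1.51 without unloaded control 2, where the call ended (adjusted p = 0.0990). The call also ended without unloaded healing 1 (log2 2.02, adjusted p = 0.101) and without the intensity trend (2.22, adjusted p = 0.0545). Of 12 tested skeletal muscle markers, 4 rose in the same comparison and 0 fell (6.41% and 1.05% of all probe sets did), and their part in the Pgam2 call was not tested. In unloaded against loaded control 0 of 14 glycolytic genes passed with limma, with 3 at an unadjusted p under 0.05, and Pgam2 and Eno1 read log2 -1.65 (adjusted p = 0.0801) and -0.24. Pgam2 passed there with quantile normalization (log2 -1.81, adjusted p = 0.0347), with the replicate block (adjusted p = 0.0162) and without unloaded control 1 (log2 -2.36, adjusted p = 0.0135), and read -0.93 without unloaded control 2. The median over the 14 was log2 0.31 in loaded healing against loaded control, against -0.03 over all probe sets.

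Other genes of glucose handling and insulin response gave no calls. Of 37 listed, 28 were on the array and 17 were tested, and 0 passed with limma in any of the 4 tested comparisons or in unloaded against loaded healing, with 0 to 1 at an unadjusted p under 0.05 in each. A count of 1 was reached without unloaded healing 2 in unloaded healing against unloaded control, and without loaded control 1 in unloaded against loaded control. The sodium-coupled glucose transporter Slc5a1 read log2 -0.50 ± 0.22 in loaded healing against loaded control (adjusted p = 0.422), and Gckr, the glucokinase regulator, read 1.34 ± 0.48 in unloaded against loaded control (adjusted p = 0.162). Of 13 listed hypoxia response genes 9 were on the array and 5 were tested, with 0 calls by limma and 0 to 2 at an unadjusted p under 0.05 in each comparison. The count was 1 in unloaded healing against unloaded control with the larger offset, the stricter filter or no intensity trend. Vegfa, the vascular growth factor, read log2 -1.62 ± 0.45 in unloaded healing against unloaded control (adjusted p = 0.0602) and 1.20 ± 0.45 in unloaded against loaded control (adjusted p = 0.188).

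Markers of the cell types that use these transporters moved between the groups as well. In whole tissue, fewer cells of a type and less RNA per cell cannot be told apart. The 10 macrophage and myeloid markers on the array summed to 8151 and 8552 in unloaded healing, 41812 and 33902 in loaded healing, 5015 and 4760 in unloaded control and 6679 and 6586 in loaded control, so loaded healing stood out there as it did for Slc2a1. Of the 8 tested, 5 rose in loaded healing against loaded control and 0 fell, and 5 fell in unloaded against loaded healing and 0 rose. Of all probe sets 1.03% rose and 0.992% fell in the comparison of loaded groups, and 0.858% fell and 0.763% rose in that of healing groups. Most of the loaded healing sum was Lyz2 (16260 and 13978) and Spp1 (11380 and 7322). Other markers of the list overlapped between loaded healing and loaded control. Cd14 read 986 and 1392 against 1119 and 1742, Aif1 496 and 414 against 532 and 436, and Itgam 236 and 49.5 against 180 and 133. The dimmest of the list, the receptor gene Csf1r, read 56.2 to 99.8 on all arrays. The part of these cells in the Slc2a1 signal was not tested. The array also carried 14 skeletal muscle markers, which summed to 16643 and 14723 in unloaded healing, 21476 and 16358 in loaded healing, 7016 and 7902 in unloaded control and 12414 and 12689 in loaded control. The sum was lowest in unloaded controls, where Slc2a4 D28561_s_at was high. By mean log2 signal over all arrays its brightest member was the fast myosin Myh4. In unloaded controls Myh4 read 668 and 557, and Casq1 was brightest at 1174 and 1469. Of 12 tested, 2 fell in unloaded against loaded controls, Myh4 and Acta1, and 0 rose (6.22% and 0.591% of all probe sets did). The rest did not pass. Tnni2, Pvalb, Tnnc2, Myh1, Atp2a1 and Ckm read log2 -1.56, -1.02, -0.94, -0.91, -0.69 and -0.32. Tnnt3, Myl1, Myh7 and Casq1 read log2 0.16, 0.25, 0.38 and 0.01. The median over the 12 was log2 -0.80, against 0.23 over all probe sets.

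The 8 adipocyte markers summed to 12776 and 9435 in unloaded healing, 15474 and 15234 in loaded healing, 15607 and 15140 in unloaded control and 13402 and 12131 in loaded control. Most of that sum was the probe set of Lep, which was bright on every array. Of 3 tested, Lpl, the lipoprotein lipase of fat, muscle and macrophages, rose in loaded healing against loaded control (log2 1.95 ± 0.31, limma adjusted p = 0.0123) and fell in unloaded against loaded healing (log2 -2.05 ± 0.31, limma adjusted p = 0.0111). The other 2, Lep and Scd, read log2 -0.29 and -1.32 in loaded healing against loaded control. Of the untested ones, Fabp4 was highest in loaded healing, at 736 and 593, and Pparg in unloaded controls, at 547 and 421. The 5 erythroid markers summed to 9676 and 8538 in unloaded healing, 6914 and 5657 in loaded healing, 3922 and 5211 in unloaded control and 5968 and 3608 in loaded control. For 9 nerve and Schwann cell markers the sums ran from 10155 to 15609, and for 7 endothelial markers from 2939 to 8251. Most of that endothelial spread was Kdr, at 245 and 3546 in unloaded healing, 257 and 3450 in loaded healing, 2647 and 3724 in unloaded control and 131 and 3104.5 in loaded control. Of the 7, 1 fell and 0 rose in unloaded against loaded healing (0.858% and 0.763% of all probe sets did). The part of these cell types in the Slc2a4, Hk1 and Hk2 signals was not tested.

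**Figure D4:**
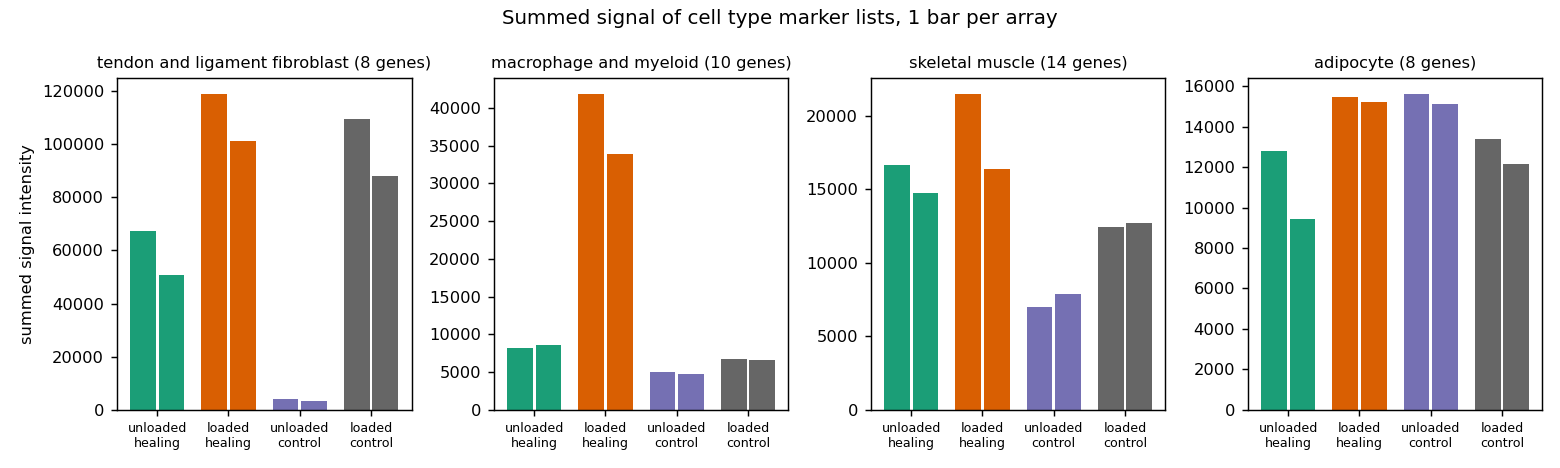
Summed signal intensity of 4 cell type marker lists, with 1 bar per array, grouped as unloaded healing, loaded healing, unloaded control and loaded control. Ligament markers are near the floor of the axis in unloaded controls (3954 and 3307), and macrophage markers are highest in loaded healing (41812 and 33902).

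The probe sets whose profiles over the 8 arrays were most like those of Slc2a1 and Slc2a4 were found among 4174 others past the filter with 1 symbol. Likeness was the root mean square difference of log2 signals after centring, a description over arrays that share 4 groups. For Slc2a1 S68135_s_at the 5 nearest were Spn, the leukocyte surface sialoglycoprotein CD43 (0.66 log2 units), Mfsd12, a membrane transporter of lysosomes (0.68), Hsd3b7, an enzyme of bile acid synthesis (0.69), Mapk14, the p38 stress kinase (0.71), and Sparcl1, a matrix glycoprotein (0.75). Spn read 112 and 349 in unloaded healing, 1409 and 1007 in loaded healing, 92.7 and 179 in unloaded control and 171 and 102 in loaded control. For Slc2a4 D28561_s_at the 5 nearest were RragB, a small GTPase of amino acid sensing (0.31), Adam10, a membrane protease (0.35), Oxt, the oxytocin precursor (0.36), Esm1, an endothelial proteoglycan (0.37), and Gjb2, a gap junction protein (0.39). All 5 were lowest by mean in loaded controls, which the choice by likeness fixes, and RragB read 329 and 369 in unloaded healing, 261 and 394 in loaded healing, 426 and 426 in unloaded control and 93.2 and 105 in loaded control.

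**Figure D5:**
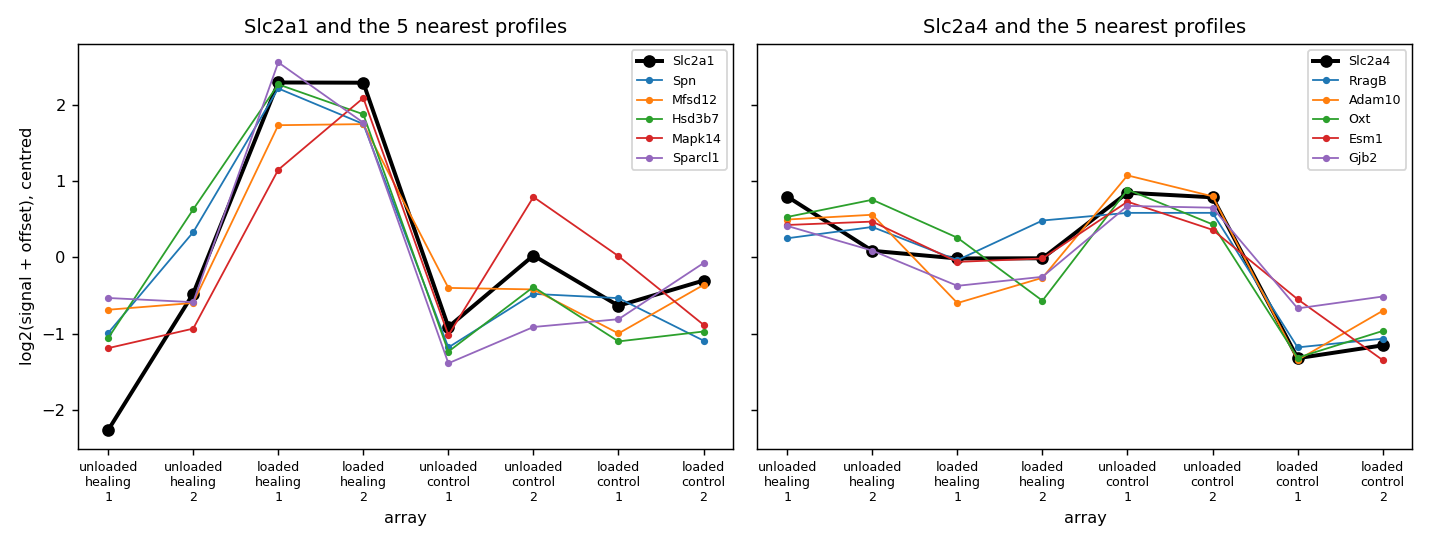
Centred log2(signal + offset) on the 8 arrays for Slc2a1 S68135_s_at (left) and Slc2a4 D28561_s_at (right), black lines, with the 5 nearest profiles of each in colour. The Slc2a1 group peaks on both loaded healing arrays, and the Slc2a4 group is lowest on the loaded control arrays.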

How the data were processed

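Gene expression was measured on 8 one-colour arrays, 2 per group. The authors deposited linear signal intensity per probe set, already scaled between arrays, as the values show (the 2% trimmed mean was 500.3 to 500.6 on each). The sources used here do not name the summarising software. No column was left out. Gene symbols are those of the platform's annotation, where 7018 of 8799 probe sets have 1 symbol.

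From the deposited values, log2(signal + 45.8) was taken, the offset being the 10th percentile of all signals. The 59 control probe sets were not fitted, and the 40% with the lowest mean log2 signal were dropped, leaving 5244. The R package limma (3.58.1, R 4.3.3) estimated a mean for each group with an intensity trend (4 residual and 5.81 prior degrees of freedom). Tests were two-sided, with Benjamini-Hochberg adjustment across the 5244 and a threshold of 0.05, and the fit was tested on simulated data.

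The members, gene lists and tests were chosen with earlier results of these data known. Slc2a1 was tested between the control groups only. Named genes were all members, listed genes past the threshold (up to 4 per list and comparison, otherwise 2 by size), and the 5 nearest profiles of Slc2a1 and Slc2a4. Each listed gene was represented by its brightest probe set. Alternatives were quantile normalization, median centring, an offset 4 times as large, no filter, a filter at 60%, no intensity trend, a replicate block and leaving out each array. Scaling to the spike-in controls, a fit without the unloaded controls, and unloaded healing set against loaded control were added after seeing the data. Precision is limited by the small number of arrays.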

Additional observations from a re-analysis of the deposited data

Results flagged for a closer look

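Both results here come from probe sets that were not tested, the only ones searched for effects that turned direction without overlap of arrays. The share of all probe sets with such a turn was not counted. Slc2a3 D13962_g_at, a tested member, had such a turn too. Its loaded healing arrays lay above loaded control (log2 0.15) and its unloaded healing arrays below unloaded control (log2 -0.70). For Hk2 D26393exon_s_at, both unloaded healing arrays read below both loaded healing arrays (32.0 and 69.2 against 182 and 233), while both unloaded control arrays read above both loaded control arrays (81.6 and 69.0 against 38.8 and 52.3). The difference between these unloading effects was log2 -1.82 and was not tested. For the 3' control probe set of Hk1 (AFFX_Rat_Hexokinase_3_at), both unloaded healing arrays read below both unloaded control arrays (54.0 and 26.0 against 65.1 and 143), while both loaded healing arrays read above both loaded control arrays (67.9 and 77.6 against 31.3 and 66.1). The difference between these healing effects was log2 -1.13 and was not tested. By mean log2 signal the Hk2 probe set was at the 15th percentile of all probe sets and the Hk1 one at percentile 9.2.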

How the results depend on the processing

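Each group has 2 arrays, and 4 member probe sets, among them the second ones of Slc2a1 and Hk2, were too dim to test. The count of member probe sets called in loaded healing against loaded control and in the interaction was 0 under every alternative run. In unloaded healing against unloaded control it was 1 with quantile normalization in place of 0, and in unloaded against loaded control 2 in place of 1, the gain each time being Slc2a3 D13962_g_at. Leaving out each array in turn gave 0 to 1 in unloaded against loaded control. For Slc2a1 in unloaded against loaded healing the log2 difference was -2.86 with the larger offset, as that offset's construction shrinks it, and -4.55 to -2.76 when arrays were left out. For Slc2a4 D28561_s_at it was 0.10 to 0.81 when arrays were left out and -0.0121 with spike-in scaling, the cause of which was not tested. With spike-in scaling the median of all probe sets was -0.40 (otherwise 0.06) in that comparison, 0.34 (otherwise -0.03) in loaded healing against loaded control, -0.40 (otherwise -0.23) in unloaded healing against unloaded control and -0.70 (otherwise -0.16) in the interaction. Median centring put it at -0.01 in unloaded against loaded control, -0.03 in unloaded healing against unloaded control and 0.06 in the interaction. The count of all probe sets called in unloaded healing against unloaded control was 627 with quantile normalization (390 higher), against 391 (336 higher), and in unloaded against loaded control 590 (205 higher), against 357 (31 higher), with 367 (7 higher) under median centring. In loaded healing against loaded control 64 were called with median centring and 106 with spike-in scaling (84 higher), against 106 (54 higher). In unloaded against loaded healing these were 42 and 137 (18 higher), against 85 (40 higher), and in the interaction 331 with quantile normalization (251 higher) and 232 with spike-in scaling (184 higher), against 254 (237 higher). Of 752 other values of member probe sets under the alternatives, 47 differed in sign from the reported one, 13 of them with spike-in scaling and 28 on leaving out an array. Of those with a test, none passed the threshold in either form, while values given as description had no threshold to pass. The largest reported size among the 47 was log2 0.66. The labels give same-numbered arrays a number in common and state no pairing or batch. Their deviations from group means correlated at 0.0008 to 0.20 over the 6 pairs of groups, all positive. Whether same-numbered arrays share a batch was not tested. With the replicate block, the call of Slc2a4 D28561_s_at in unloaded against loaded control stayed (adjusted p = 0.00991), and the block gave 1 member call there, as without it.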
